A study of Rattus norvegicus with 64 samples.

Results

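Solute carriers (SLC) are membrane transporters, and the genes described here are the 78 SLC genes whose signal stood above background on every one of 64 arrays of rat reconstructed bladder wall. They were 78 of 303 SLC genes and of 15709 named genes on the array. Members were chosen by detection alone: a gene with a symbol of the SLC form entered if at least 1 spot of its probe carried the scanner's mark for a signal well above background on all 64 arrays, and its brightest probe stood for the gene. The rule left out 1 further SLC gene. All rats were male Wistar rats that underwent hemicystectomy, the removal of part of the bladder, and the defect was closed with a graft of about 1 cm2. The graft was bladder acellular matrix (BAM), a bladder wall stripped of its cells. It was used either alone (BAM) or seeded with adipose-derived stem cells (BAM+ASCs). The labelled dose of a BAM+ASCs graft was 10 × 10⁶ cells. The seeded cells were of the third passage, grown from retroperitoneal fat of male Wistar rats aged 10 weeks. Donors and hosts were of the same strain, so array signal cannot be assigned to seeded or to host cells. Bladder walls were collected 7, 30, 90 and 180 days after surgery, and 8 rats of each graft and day were measured on a 1-colour Agilent array, which gave 8 groups of 8. The age of the host rats is not given in the sources used here, and unoperated bladder was not analysed here. The 8 arrays of a group are labelled as biological replicates.

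As background, SLC proteins do not pump with ATP: they let a solute run down its gradient or couple it to the movement of another ion or solute. The family divides by number into carriers of sugars, monocarboxylates such as lactate and pyruvate, amino acids, metals, inorganic ions, nucleosides and organic ions. Most members of family 25 lie in the inner membrane of mitochondria and exchange metabolites, phosphate and nucleotides with the cytosol. In the bladder wall the urothelium, the smooth muscle and immune cells each use different sets of these carriers. All values come from whole tissue, so that fewer cells of a type and less RNA per cell cannot be told apart.

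A level below is the log2 signal of a gene's probe minus the 75th percentile of all gene spots of the same array, and a difference is the mean level with BAM+ASCs minus that with BAM. Levels are given as the lowest, the median and the highest of the 8 arrays of a group, and levels of different genes are not compared, because probes differ in brightness. A gene was called when its adjusted p in limma, over all 30367 gene probes, was under 0.01 and its fold change over 1.5. Each slide held 1 group, so slide and group cannot be told apart, and the scan date changed between the slides of 30 days and those of 90 days. At 7 and 30 days 73.3% to 95.6% of gene spots were above background, and at 90 and 180 days 35.5% to 64.6%. Local background averaged 345.3 ± 14.3 units (SD, n = 8) for BAM at 90 days and between 43.4 and 155.7 units in the other groups. Of 302 SLC genes, 81 were above background on all 8 arrays with BAM at 90 days, against 105 to 211 in the other 7 groups, so that group largely set who is a member. Just outside the rule, 23 SLC genes were detected on 63 arrays, and for 21 of them the missing array was one with BAM at 90 days. Just inside, Slc7a11 passed on 59 arrays, Slc7a6 on 61 and Slc17a5 on 63 when a share of at least 0.5 of a probe's spots had to be above background, and the other 75 members passed on all 64. For 4 arrays the median correlation with the other arrays of their group was under 0.95: BAM at 7 days replicate 7, BAM+ASCs at 30 days replicate 1, and BAM at 90 days replicates 5 and 8. Without them the members called between the grafts numbered 6, 9, 7 and 1 at 7, 30, 90 and 180 days, against 6, 5, 6 and 1 with all arrays. This refit was chosen after seeing the data. The share of all probes called in it is not given here, so its counts have no background beside them. The labelled tissue bore its markers: smooth muscle genes lay between 0.71 and 4.92 as a list on every array, and urothelial genes between -2.69 and 4.73.

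Members were grouped by family number, and each group is named for what most of its families carry. Some members do not carry what their group is named for: the creatine carrier Slc6a8 counts among the amino acid families, the vitamin carrier Slc5a6 and the inositol carrier Slc5a3 among the sugar families, the glucose-6-phosphate carrier Slc37a4 and its relative Slc37a1 among the vitamin and lipid families, and Slc32a1, which carries GABA and glycine, among the organic ion families. The mitochondrial group is family 25 as a whole, which also holds the peroxisomal Slc25a17 and Slc25a46 of the outer mitochondrial membrane. Of the genes on the array, 20 of 39 of family 25 were members, 7 of 12 of the nucleoside and nucleotide sugar families and 11 of 44 of the families of inorganic ions, acid and base. Members made up 3 of 13 genes of the monocarboxylate families, 7 of 30 of the metal families, 6 of 29 of the families of vitamins, choline, haem and lipids and 5 of 25 of the sugar families. In the families of organic ions, peptides, bile acids, urea and sulfate 9 of 51 were members, and in the amino acid families 10 of 59.

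These carriers were called between the grafts at some day at a share near that of all probes. Most of those called were called at 1 day only. Of the 78 members, 14 were called between the grafts at some day and 64 at none, so that 17.9% were called at some day beside 20.2% of all probes and 20.3% of probes detected on all 64 arrays. At 7 days 6 members were called, 4 higher and 2 lower with BAM+ASCs, which is 7.69% of members beside 7.71% of all probes. At 30 days 5 were called, 3 higher and 2 lower, or 6.41% beside 1.67% of all probes. At 90 days 6 were called, 3 in each direction, or 7.69% beside 12.4%, and at 180 days 1 was called, higher, or 1.28% beside 2.42%. Among probes detected on all 64 arrays, as every member is, the background was 6.38%, 1.91%, 12.8% and 3.97% at the 4 days in turn. The median difference over the members was -0.03, -0.02, -0.00 and -0.02, and over all probes it was -0.16, 0.11, -0.27 and 0.06. By family group, calls between the grafts fell on 4 of 10 members of the amino acid families. Among these were Slc6a8 and Slc66a3, whose family 66 was placed in that group. Calls fell on 4 of 9 members of the organic ion families, Slc32a1 among them, and on 2 of 3 of the monocarboxylate families. They also fell on 2 of 11 members of the ion families, 1 of 7 of the nucleoside families and 1 of 20 of family 25. None of the 7 members of the metal families, the 5 of the sugar families or the 6 of the vitamin and lipid families was called between the grafts at any day in the fit of all arrays.

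**Figure D1:**
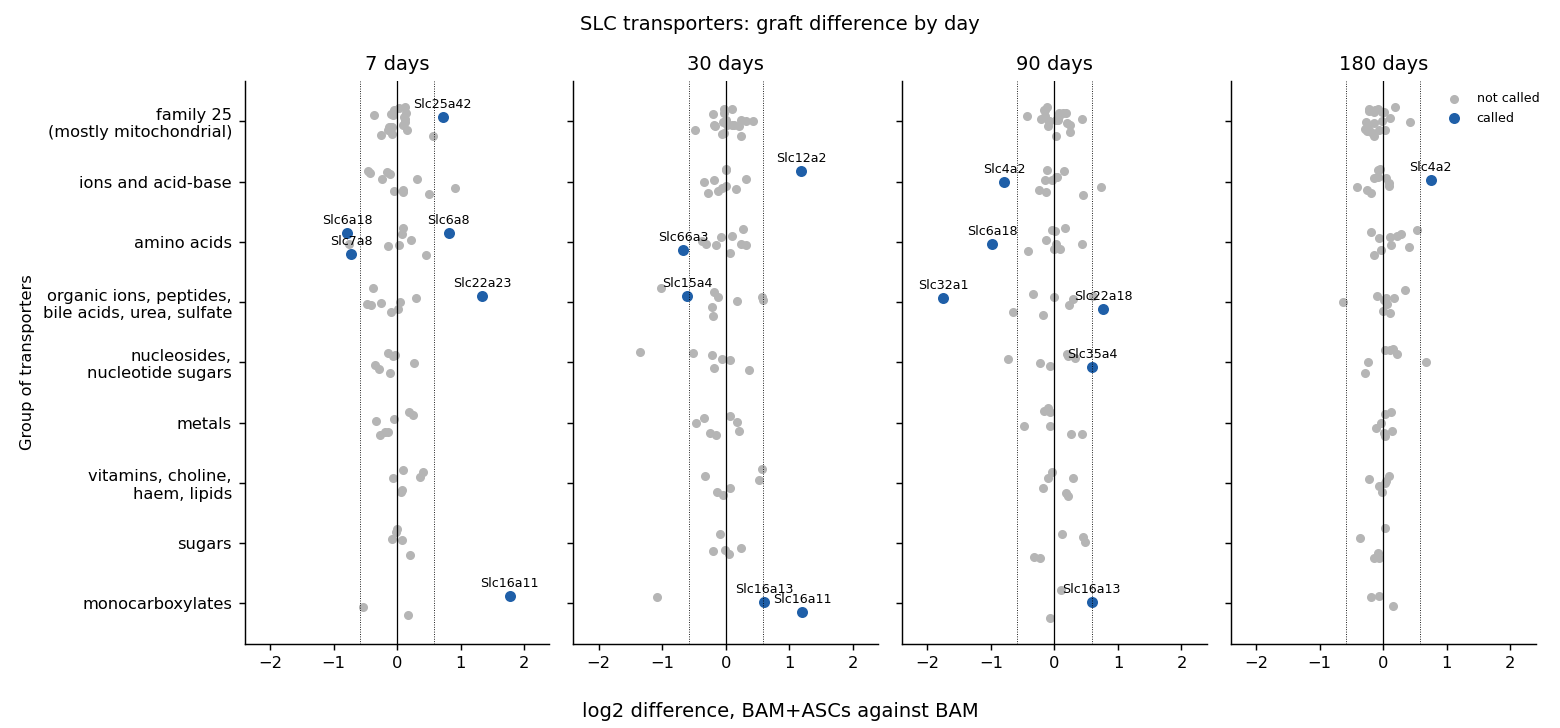
Difference in level of each of the 78 members (log2, BAM+ASCs minus BAM, horizontal axis) by family group (vertical axis) at each of the 4 days, with called members in blue and dotted lines at a fold of 1.5. Called members number 6, 5, 6 and 1 at 7, 30, 90 and 180 days, and the lowest value is Slc32a1 at 90 days.

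At 7 days the largest difference lay on a monocarboxylate carrier. Slc16a11, a monocarboxylate transporter linked to pyruvate and lipid metabolism, ran from -1.96 through -0.89 to 0.19 with BAM+ASCs and from -4.18 through -2.74 to -1.18 with BAM. The groups overlapped, but 6 BAM+ASCs arrays lay above every BAM array. The difference was 1.77 (SE 0.30, adjusted p = 1.26e-05). Slc6a8, which brings creatine into cells, measured 1.73, 2.10 and 2.28 with BAM+ASCs and 0.20, 1.44 and 1.70 with BAM, with no overlap between the groups. It was higher with ASCs by 0.81 (SE 0.15, adjusted p = 4.03e-05). Slc22a23, an organic ion transporter family member with no settled substrate, lay at -0.78, 0.31 and 0.75 against -2.34, -1.18 and 0.16. The groups overlapped and the difference was 1.34 (SE 0.32, adjusted p = 0.00186), which was not called without BAM replicate 7. Another probe of the same gene gave 1.19 and was called.

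Slc25a42, a mitochondrial carrier of coenzyme A, was the last member higher at 7 days, by 0.72 (SE 0.18, adjusted p = 0.00249). It is named although the rule for named genes did not select it, after its values were seen. Of its BAM+ASCs arrays 7 lay above every BAM array, but a second probe, detected on 12 arrays, gave -0.34. The call of Slc25a42 was lost without BAM replicate 7 and without BAM+ASCs replicate 1, with values between 0.61 and 0.80 over the 16 refits that left out 1 array each.

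Both members that were lower at 7 days carry amino acids. Slc7a8, the light chain of an exchanger of neutral amino acids that works together with Slc3a2, lay at 0.40, 0.68 and 0.91 with BAM+ASCs and at 1.19, 1.34 and 1.77 with BAM. These groups did not overlap, and the difference was -0.73 (SE 0.19, adjusted p = 0.0042). It was not called without BAM replicate 6 or 7 or without BAM+ASCs replicate 1, with -0.76 to -0.67 over those refits. Slc6a18, a transporter of neutral amino acids best known from kidney, lay at -3.40, -3.16 and -2.45 against -2.96, -2.25 and -1.48. Of the 8 BAM arrays, 6 lay above every BAM+ASCs array, and the difference was -0.78 (SE 0.17, adjusted p = 5.92e-04). A second probe of Slc6a18, above background on 4 arrays, gave -0.80 and was not called. Slc3a2, the heavy chain that carries several exchangers to the membrane, was not called.

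Urothelial genes moved with the grafts at the same day. Of 7 urothelial markers 5 were higher with BAM+ASCs at 7 days and none was lower, with Upk2 at 2.87 and Upk1a at 2.36. The list level ran from 0.69 to 2.64 with BAM+ASCs and from -2.69 to 1.93 with BAM. Of 4 endothelial markers 2 were lower with BAM+ASCs, Vwf by 0.997 and Kdr by 0.68, and their list level ran from 0.61 to 1.20 with BAM+ASCs and from 1.15 to 2.16 with BAM. The part of urothelial and endothelial RNA in the differences at 7 days was not tested.

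At 30 days 2 of the 3 members of the monocarboxylate families and an ion carrier were higher with ASCs. Slc12a2, the cotransporter that brings sodium, potassium and chloride into epithelial and muscle cells, lay at -1.35, -0.52 and 0.86 with BAM+ASCs and at -1.99, -1.60 and -1.26 with BAM. Of the BAM+ASCs arrays 7 lay above every BAM array, and the difference was 1.19 (SE 0.19, adjusted p = 1.10e-04). A second probe of Slc12a2 gave 1.54 and was called too. Slc16a11 lay at -1.43, -0.76 and 0.59 against -2.14, -1.92 and -1.38, and again 7 BAM+ASCs arrays lay above every BAM array. Its difference was 1.21 (SE 0.30, adjusted p = 0.00805).

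Slc16a13, a family neighbour of Slc16a11, lay at -1.03, -0.68 and -0.33 against -1.57, -1.37 and -0.86 at 30 days. The groups overlapped and the difference was 0.61 (SE 0.15, adjusted p = 0.00822). In the RefSeq annotation the interval of Slc16a11 lies inside that of Slc16a13, and whether a probe reads both transcripts was not tested. Both calls at 30 days lay close to the threshold of adjusted p and were lost when any of several arrays was left out. Slc16a11 and Slc16a13 were each called in 7 of the 16 refits that left out 1 array, with values of 1.03 to 1.32 and of 0.55 to 0.67.

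**Figure D2:**
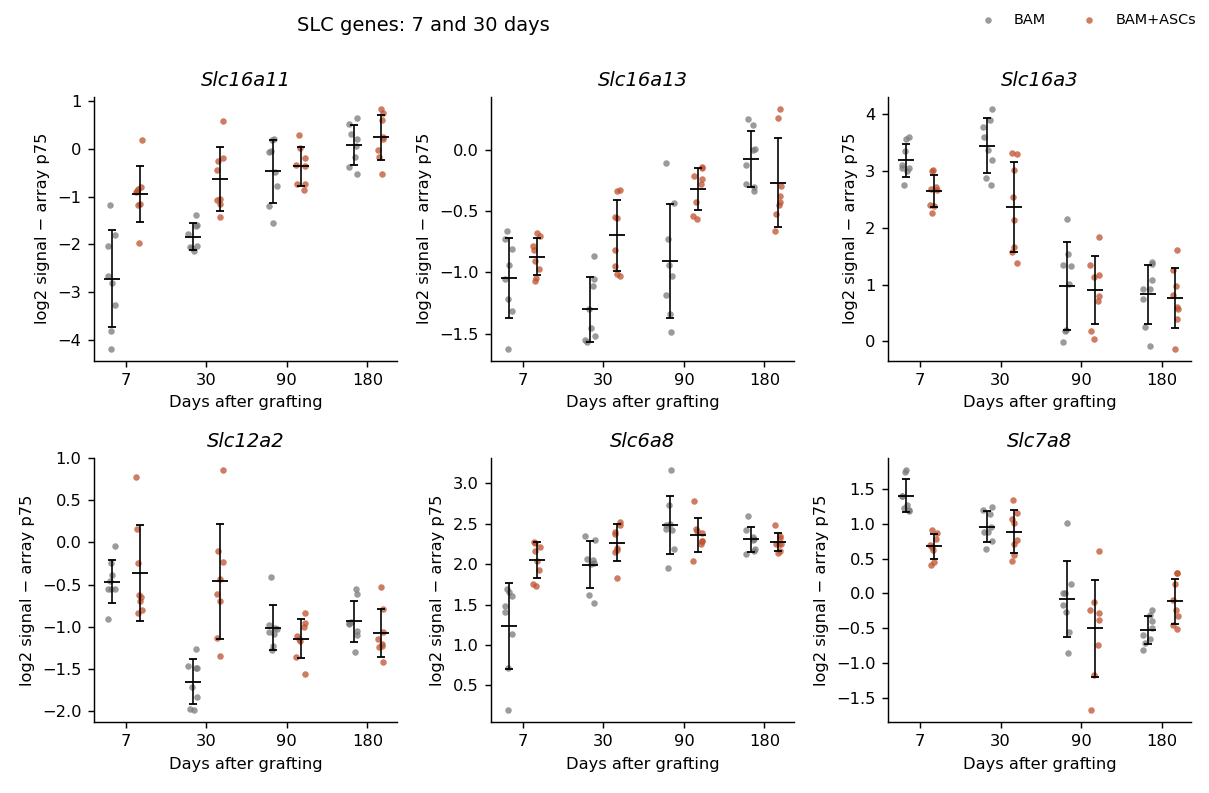
Level (log2, scaled per array to its 75th percentile, vertical axis) of Slc16a11, Slc16a13, Slc16a3, Slc12a2, Slc6a8 and Slc7a8 on each array at 7, 30, 90 and 180 days, with BAM in grey, BAM+ASCs in orange and the mean ± SD of 8 arrays. The BAM+ASCs points of Slc6a8 lie above all BAM points at 7 days, and those of Slc7a8 lie below.

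The members lower at 30 days were Slc15a4 and Slc66a3. Slc15a4, a lysosomal transporter of histidine and short peptides in immune cells, lay at -0.82, -0.71 and -0.33 with BAM+ASCs and at -0.37, -0.02 and 0.45 with BAM. The groups overlapped and the difference was -0.61 (SE 0.12, adjusted p = 0.00137). Slc66a3 lay at -0.20, 0.66 and 0.91 against 0.73, 1.25 and 1.59, and its difference was -0.67 (SE 0.15, adjusted p = 0.00397). Slc15a4 was called in 9 of the 16 refits and Slc66a3 in 11.

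Further carriers had lower means with BAM+ASCs at 30 days and were not called. Slc16a3, which exports lactate from glycolytic cells, lay at 1.39, 2.34 and 3.32 with BAM+ASCs and at 2.75, 3.49 and 4.09 with BAM (difference -1.07, adjusted p = 0.0113). Slc28a2, a sodium-coupled purine nucleoside transporter, had a difference of -1.35 (adjusted p = 0.0118), and Slc15a3, a relative of Slc15a4 in the same compartment, had -1.02 (adjusted p = 0.0475). Without BAM+ASCs replicate 1, whose correlation with its group was low, and the other 3 such arrays, the 5 calls at 30 days remained and Slc16a3 (-1.17), Slc28a2 (-1.41), Slc22a15 (0.59) and Slc37a1 (0.60) were called too. The share of all probes called in that refit is not given here. Macrophage markers at 30 days had differences between -1.05 and -0.26 with none of 5 called, and their list level ran from -0.10 to 0.53 with BAM+ASCs and from 0.49 to 1.19 with BAM. Their part in the values of Slc15a4, Slc15a3 and Slc16a3 was not tested.

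At 90 days Slc32a1 stood out. Slc32a1 is best known as the vesicular carrier of GABA and glycine in inhibitory neurons. It lay at -1.43, -1.27 and -0.87 with BAM+ASCs and at 0.15, 0.51 and 0.76 with BAM, so that the groups were far apart. The difference was -1.75 (SE 0.13, adjusted p = 1.61e-16), and it was called in all 16 refits with -1.81 to -1.72. With BAM the level of Slc32a1 had been -0.40, -0.21 and 0.22 at 30 days and fell to -1.84, -1.61 and -1.14 at 180 days, and its median was above 0 with BAM at 90 days and below 0 in the other 7 groups. That group is also the one with the highest local background.

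Slc6a18 was lower at 90 days as it had been at 7 days, with -2.48, -2.20 and -1.96 against -1.76, -1.16 and -0.91 and no overlap. The difference was -0.98 (SE 0.17, adjusted p = 8.02e-06), and the second probe of Slc6a18 gave -0.52 and was not called. By median Slc6a18 lay highest with BAM at 90 days, the group with the highest local background. Slc4a2, an anion exchanger that swaps chloride for bicarbonate, lay at 1.52, 2.00 and 2.26 against 2.10, 2.83 and 3.31. Of the BAM arrays 7 lay above every BAM+ASCs array, and the difference was -0.79 (SE 0.14, adjusted p = 2.25e-05).

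The 3 members higher with BAM+ASCs at 90 days came from different families. Slc22a18, a member of the organic cation transporter family encoded in an imprinted region, lay at 2.78, 2.94 and 3.13 with BAM+ASCs and at 1.79, 2.18 and 2.62 with BAM. The groups did not overlap, and the difference was 0.77 (SE 0.11, adjusted p = 8.17e-08). Slc35a4, placed in the nucleotide sugar transporter family, lay at 2.66, 2.92 and 3.18 against 2.04, 2.35 and 2.52, also without overlap. Its difference was 0.59 (SE 0.06, adjusted p = 8.88e-11), close to the fold threshold, and 11 of 16 refits called it. Slc16a13 had a difference of 0.59 (SE 0.15, adjusted p = 0.00242), with -0.57, -0.26 and -0.14 against -1.49, -0.98 and -0.11, and 6 of 16 refits called it.

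Arrays that stood apart touched the 90 day comparison. Without BAM replicates 5 and 8, together with the other 2 arrays of low correlation, the 6 calls remained apart from that of Slc16a13 (0.44), and 2 carriers that muscle uses, Slc24a3 (1.14, adjusted p = 4.34e-04) and Slc2a4 (0.86, adjusted p = 0.00788), were called higher with BAM+ASCs. These added calls, too, have no share of all probes beside them. Of 6 smooth muscle markers 2 were higher with BAM+ASCs at 90 days, Myh11 by 1.09 and Tagln by 1.00. Of 5 fibroblast markers 2 were higher, Dcn by 0.76 and Col1a1 by 0.75, and 1 of 4 endothelial markers, Cdh5 (-0.87), and 1 of 4 T cell markers, Cd4 (-1.01), were lower. The fibroblast list level ran from 3.43 to 3.92 with BAM+ASCs and from 2.94 to 3.64 with BAM. The part of these cell types in the values at 90 days was not tested.

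At 180 days the only call was Slc4a2, now higher with ASCs. It lay at 2.53, 2.90 and 3.41 with BAM+ASCs and at 1.92, 2.11 and 2.45 with BAM, without overlap. The difference was 0.75 (SE 0.14, adjusted p = 2.12e-04). These values belong to the brightest probe: a second probe of Slc4a2, also above background on all 64 arrays, gave -0.02 at 90 days and 0.09 at 180 days. Slc6a18 lay at -1.87, -1.42 and -1.17 with BAM+ASCs and at -2.24, -2.01 and -1.91 with BAM at 180 days, without overlap, but its difference of 0.54 lay under the fold threshold. At 180 days 12 of the 78 members had an unadjusted p under 0.05 in limma. The share of all probes under that threshold is not given here, so the count has no background beside it.

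**Figure D3:**
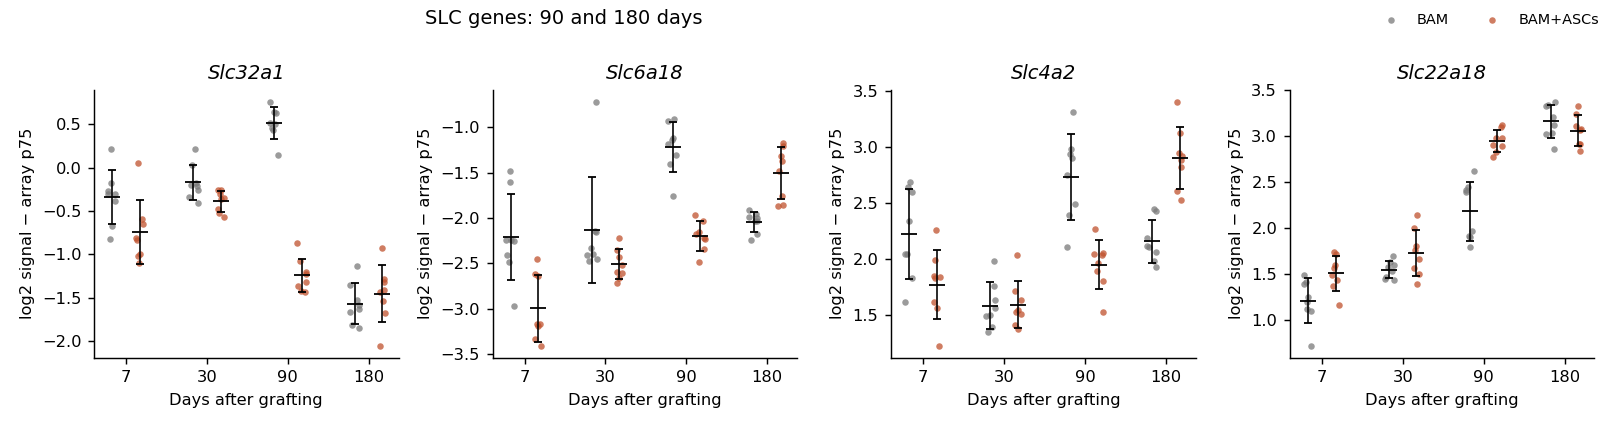
Level (log2, scaled per array to its 75th percentile, vertical axis) of Slc32a1, Slc6a18, Slc4a2 and Slc22a18 on each array at 7, 30, 90 and 180 days, with BAM in grey, BAM+ASCs in orange and the mean ± SD of 8 arrays. At 90 days the grafts do not overlap for Slc32a1, Slc6a18 and Slc22a18, and at 180 days they do not overlap for Slc4a2 and Slc6a18.

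Most members of family 25 and several carriers of general use differed little between the grafts. At 30, 90 and 180 days the 20 members of family 25 had differences between -0.49 and 0.43, and none was called. Slc25a5, the ADP and ATP exchanger of dividing and epithelial cells, lay between 2.87 and 3.77 over all 64 arrays, with differences of -0.07, -0.00, 0.02 and -0.09 at the 4 days. Slc25a3, the mitochondrial phosphate carrier, had differences of 0.09, 0.02, 0.02 and 0.11. The amino acid carrier Slc38a2 had differences between -0.20 and 0.23, and the heavy chain Slc3a2 between -0.16 and 0.11. For the fatty acid carrier Slc27a1 the differences lay between -0.32 and 0.05, and for the phosphate carrier Slc20a1 between -0.07 and 0.32. None of these was called, which does not show that the grafts were alike.

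Whether a graft difference itself changed between neighbouring days was tested as a contrast of contrasts. From 7 to 30 days 1 member was called, beside 0.985% of all probes and 1.19% of detected probes. It was Slc22a15, an organic cation family member, whose difference rose by 0.95. A second probe of Slc22a15, above background on 36 arrays, gave 0.73 and was not called. At 30 days Slc22a15 lay at -0.32, -0.15 and 0.20 with BAM+ASCs and at -0.93, -0.65 and -0.51 with BAM, without overlap. From 30 to 90 days 5 members were called, 2 upward and 3 downward, beside 9.96% of all probes and 13.3% of detected probes. The difference fell by 1.53 for Slc32a1, by 1.32 for Slc12a2 and by 0.80 for Slc4a2, and it rose by 0.78 for Slc35a4 and by 0.59 for Slc22a18. From 90 to 180 days 6 were called, beside 9.75% of all probes and 16.8% of detected probes. The difference rose by 1.87 for Slc32a1, by 1.54 for Slc4a2 and by 1.52 for Slc6a18, and it fell by 0.87 for Slc22a18, by 0.78 for Slc16a13 and by 0.60 for Slc35a1, the carrier of activated sialic acid. These contrasts share the arrays of 30 or of 90 days with each other and with the graft comparisons. For Slc4a2 a second probe, above background on all 64 arrays, gave 0.31 from 30 to 90 days and 0.10 from 90 to 180 days. Neither value was called, and the first has the opposite sign. The second probe of Slc6a18, above background on 4 arrays, gave 0.67 from 90 to 180 days and was not called. That of Slc12a2 gave -1.60 from 30 to 90 days and was called. Across all 4 days together, 25 of 78 members passed the test of an interaction of graft and day, or 32.1%, beside 18.5% of all probes and 30.2% of probes detected on all arrays.

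Over time 46 of the 78 members were called at some step within a graft, or 59% beside 63% of all probes and 48.1% of detected probes. In at least 1 of the 13 comparisons of any kind 47 members were called, or 60.3% beside 66.9% and 51.6%, and 31 were called in none. From 7 to 30 days 16 members were called with BAM, 10 higher and 6 lower, or 20.5% beside 8.63% of all probes and 11.3% of detected probes. With BAM+ASCs 5 were called, 1 higher and 4 lower, or 6.41% beside 8.04% of all probes and 7.74% of detected probes. With BAM, Slc22a23 rose by 1.59, Slc28a2 by 1.52 and Slc24a3 by 1.40, and Slc22a15 fell by 1.27 and Slc12a2 by 1.19. Second probes of Slc22a23 (1.64) and Slc12a2 (-1.31) were called too, and those of Slc28a2 (0.98) and Slc22a15 (-0.70) were not. With BAM+ASCs, Slc25a22, a mitochondrial glutamate carrier, rose by 0.77, and the zinc carrier Slc39a7 of the endoplasmic reticulum fell by 0.86 and the lysosomal nucleoside carrier Slc29a3 by 0.73. Slc25a22 also rose with BAM, by 0.65, and Slc39a7 also fell with BAM, by 0.79. With BAM 3 of 3 neutrophil markers were lower at 30 than at 7 days, with differences of -5.62 to -4.14, 4 of 4 endothelial markers were lower, with -1.34 to -0.92, and 4 of 7 urothelial markers were higher. With BAM+ASCs 1 of 3 neutrophil and 1 of 4 endothelial markers were lower and 1 of 7 urothelial markers was higher. The neutrophil list level went from between 1.24 and 3.90 to between -3.06 and -0.17 with BAM, and from between 0.22 and 2.39 to between -2.38 and 1.87 with BAM+ASCs. The part of these cell types in the members' values was not tested.

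The step from 30 to 90 days held the most calls among the members in each graft, and it cannot be told apart from the change of scan date. With BAM 25 members were called, 13 higher and 12 lower, or 32.1% beside 44.7% of all probes and 27.4% of detected probes. With BAM+ASCs 21 were called, 8 higher and 13 lower, or 26.9% beside 28% of all probes and 20.5% of detected probes. The 4 members that rose in both grafts were 4 of the 13 risers with BAM and 4 of the 8 with BAM+ASCs. The 9 that fell in both were 9 of 12 and 9 of 13. The share of all probes that moved the same way in both grafts is not given here, so these overlaps have no background beside them.

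Members that rose in both grafts include carriers that muscle uses. Slc24a3, an exchanger of sodium for calcium and potassium found in smooth muscle and brain, ran from -1.50, -1.01 and -0.55 at 30 days to -0.45, 0.36 and 2.55 at 90 days with BAM, and from -2.31, -1.06 and -0.60 to 1.01, 1.09 and 1.88 with BAM+ASCs. In both grafts every array of 90 days lay above every array of 30 days, and the rises were 1.58 (SE 0.29) and 2.44 (SE 0.29). Slc2a4, the insulin-responsive glucose transporter of muscle and fat, ran from -1.07, -0.69 and -0.26 to -0.08, 0.62 and 2.94 with BAM, and from -1.79, -0.82 and -0.36 to 0.72, 1.33 and 2.05 with BAM+ASCs. The rises of Slc2a4 were 1.52 and 2.20 (SE 0.27 each). Slc25a4, the ADP and ATP exchanger of heart and muscle mitochondria, rose by 0.65 with BAM and by 0.87 with BAM+ASCs, and Slc22a18 rose by 0.63 and 1.22. Of 6 smooth muscle markers 5 were higher at 90 than at 30 days with BAM and all 6 with BAM+ASCs, and their list level went from 2.54 to 3.44 up to 3.11 to 4.84 and from 2.11 to 3.26 up to 3.91 to 4.76. Of 4 skeletal muscle markers 3 were higher with BAM and 1 with BAM+ASCs, with differences up to 2.79 and 2.08, and of 4 Schwann cell markers 2 and 3 were higher. The skeletal muscle list level went from between -3.35 and -2.61 to between -2.83 and 0.67 with BAM, and from between -3.88 and -1.46 to between -2.07 and -1.30 with BAM+ASCs. Of 3 adipocyte markers 1 was higher with BAM and none with BAM+ASCs. The part of muscle, fat and nerve RNA in the rises was not tested.

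Members that fell in both grafts include carriers of lactate, nucleosides, cystine, peptides, copper, zinc and inositol. Slc28a2 went from 1.28, 2.70 and 3.62 at 30 days to -0.998, -0.43 and 1.103 at 90 days with BAM, a fall of 2.76 (SE 0.35), and it fell by 2.14 with BAM+ASCs. Slc16a3 went from 2.75, 3.49 and 4.09 to -0.01, 1.17 and 2.16 with BAM, a fall of 2.47 (SE 0.28), and it fell by 1.47 with BAM+ASCs. Slc7a11, which takes up cystine in exchange for glutamate, went from -0.01, 0.54 and 1.02 to -5.30, -1.11 and -0.37 with BAM, a fall of 2.18 (SE 0.42), and it fell by 2.17 with BAM+ASCs. Other probes of Slc28a2 (-2.22 with BAM, called, and -0.85 with BAM+ASCs, not called) and of Slc7a11 (-0.97 and -1.10, not called) had smaller values of the same sign. With BAM no array of 90 days reached the lowest array of 30 days for any of these 3 genes.

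The other members that fell in both grafts from 30 to 90 days are Slc15a3 (by 1.74 with BAM and by 1.37 with BAM+ASCs), the chloride, oxalate and bicarbonate exchanger Slc26a6 (by 1.41 and by 1.18), the copper carrier Slc31a2 (by 1.32 and by 0.93), Slc7a8 (by 1.04 and by 1.38), the zinc carrier Slc39a6 (by 0.88 and by 0.81) and the inositol carrier Slc5a3 (by 0.62 and by 0.83). Of 5 macrophage markers 3 were lower at 90 days with BAM and 1 with BAM+ASCs, and 3 of 3 neutrophil markers were lower with BAM+ASCs and none with BAM. Of 4 T cell markers 2 were lower with BAM and 1 with BAM+ASCs, and of 5 fibroblast markers 2 were lower with BAM and 1 was higher with BAM+ASCs. The part of immune cell and fibroblast RNA in these falls was not tested. A second probe of Slc31a2, detected on 60 arrays, gave 0.14 with BAM+ASCs.

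**Figure D4:**
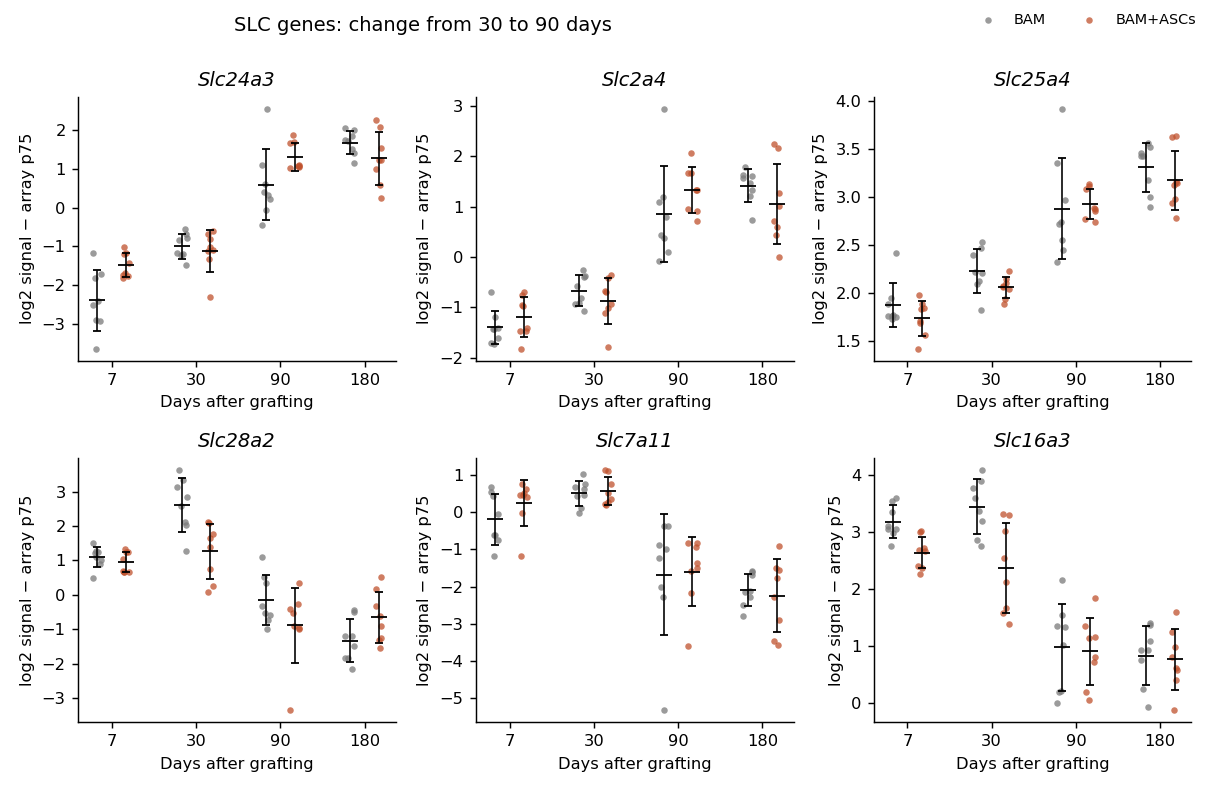
Level (log2, scaled per array to its 75th percentile, vertical axis) of Slc24a3, Slc2a4, Slc25a4, Slc28a2, Slc7a11 and Slc16a3 on each array at 7, 30, 90 and 180 days, with BAM in grey, BAM+ASCs in orange and the mean ± SD of 8 arrays. Slc24a3 and Slc2a4 lie higher, and Slc28a2, Slc7a11 and Slc16a3 lower, at 90 and 180 days than at 30 days in both grafts.

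The promoters of 1 such riser and of the 3 deepest fallers are printed, because each of these genes moved the same way in both grafts. The riser and the fallers moved in opposite directions, over a step that cannot be told apart from the change of scan date. Each sequence is the RefSeq GRCr8 stretch from 250 bases before to 50 bases after the annotated start, read along the gene, and capitals mark the motifs found on either strand.

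Slc24a3, chr3:153005168-153005467, plus strand: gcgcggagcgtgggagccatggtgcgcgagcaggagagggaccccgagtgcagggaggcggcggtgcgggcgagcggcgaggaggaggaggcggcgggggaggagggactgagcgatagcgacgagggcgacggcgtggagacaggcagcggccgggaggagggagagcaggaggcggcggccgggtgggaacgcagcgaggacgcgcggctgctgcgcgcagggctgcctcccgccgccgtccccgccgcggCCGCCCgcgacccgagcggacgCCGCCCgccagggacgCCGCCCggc
Slc28a2, chr3:129819538-129819837, plus strand: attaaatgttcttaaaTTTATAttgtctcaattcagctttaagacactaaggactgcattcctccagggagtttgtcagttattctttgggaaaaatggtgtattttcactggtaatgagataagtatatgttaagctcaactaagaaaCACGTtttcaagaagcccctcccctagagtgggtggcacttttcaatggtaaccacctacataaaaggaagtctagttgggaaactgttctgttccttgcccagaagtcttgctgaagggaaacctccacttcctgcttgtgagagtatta
Slc7a11, chr2:136668215-136668514, minus strand: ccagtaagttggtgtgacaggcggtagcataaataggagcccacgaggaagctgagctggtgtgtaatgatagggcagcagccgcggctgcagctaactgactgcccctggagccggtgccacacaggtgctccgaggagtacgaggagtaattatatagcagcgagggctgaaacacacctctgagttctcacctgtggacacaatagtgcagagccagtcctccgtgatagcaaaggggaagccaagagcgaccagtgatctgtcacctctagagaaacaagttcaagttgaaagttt
Slc16a3, chr10:106712078-106712377, plus strand: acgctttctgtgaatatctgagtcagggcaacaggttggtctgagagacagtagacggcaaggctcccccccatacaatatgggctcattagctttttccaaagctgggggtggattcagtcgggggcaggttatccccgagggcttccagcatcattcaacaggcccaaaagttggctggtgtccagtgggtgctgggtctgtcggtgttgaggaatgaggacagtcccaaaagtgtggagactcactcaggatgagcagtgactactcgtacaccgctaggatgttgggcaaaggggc

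The Slc24a3 stretch is 80% G and C with 49 CpG and holds 3 GC boxes (GGGCGG or its complement). The Slc28a2 stretch is 39.3% G and C and holds 1 TATA box (TATAAA, on the opposite strand) and 1 ACGTG, the core that hypoxia-inducible factors bind. The stretches of Slc7a11, at 53.3% G and C, and of Slc16a3, at 54.3%, held none of the 6 motifs searched. Among the 67 members with a promoter given, 46 held a GC box, or 68.7% beside 34.9% of 27457 promoters. A TATA box was held by 3, or 4.48% beside 14.3%. Members had to be detected on every array, whereas the 27457 promoters were taken without regard to detection. The share among promoters of detected genes is not given here, so no motif contrast can be assigned to SLC genes as such. ACGTG was held by 25.4% of members and 19.7% of all promoters, the antioxidant response core TGACNNNGC by 17.9% and 12.2%, the amino acid response core TGATGNAA by 2.99% and 3.82%, and the CArG box of serum response factor by none and 1.64%. GC boxes lay in 2 of the 3 risers with a promoter, Slc24a3 and Slc25a4, and in 2 of the 7 fallers, Slc39a6 and Slc7a8. A match is a description of letters in this window.

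From 90 to 180 days 13 members were called with BAM, 7 higher and 6 lower, or 16.7% beside 9.36% of all probes and 16.7% of detected probes. Slc24a3 rose by a further 1.09 and Slc22a18 by 0.98, while Slc32a1 fell by 2.08 and Slc28a2 by 1.18. With BAM+ASCs 2 members were called from 90 to 180 days, beside 4.13% of all probes and 5.7% of detected probes: Slc4a2 rose by 0.96 and Slc6a18 by 0.70. Their second probes gave 0.02 and 0.20 and were not called. Over all comparisons 25 members had another probe, and where the member's probe was called the other had the same sign in 36 of 44 cases and the opposite sign in 8, among them Slc4a2 with BAM from 30 to 90 days (1.15 against -0.88, each called). The 44 cases came from 17 genes and are not independent. In most of them the other probe was not called, and some other probes were above background on few arrays, that of Slc6a18 on 4.

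Genes that work with these carriers were followed as a list of 34, all on the array. At 7 days 4 were called between the grafts, beside the same 7.71% of all probes: Stk39, a kinase that activates Slc12a2, was higher by 1.06 and the sodium pump subunit Atp1b1 by 1.01, whereas the transferrin receptor Tfrc was lower by 1.08 and Chac1, which degrades glutathione, by 0.95. None was called at 30 days, beside 1.67% of all probes. Stk39 then had a difference of 0.56 (adjusted p = 0.0258) beside the call of Slc12a2. At 90 days 3 of the 34 were called, beside 12.4% of all probes and 12.8% of detected probes. All were higher, namely ferritin heavy chain Fth1 by 0.99, the scaffold Nherf1 by 0.81 and Stk39 by 0.70. At 180 days none was called, beside 2.42% of all probes. From 30 to 90 days 7 of the 34 were higher and 5 lower with BAM, and 7 were higher and 6 lower with BAM+ASCs, beside the same 44.7% and 28% of all probes called in either direction. Of the pair of chaperones that carry monocarboxylate transporters to the membrane, Emb fell by 1.70 with BAM and by 1.21 with BAM+ASCs, while Bsg rose by 0.61 with BAM. Hmox1, an oxidative stress gene often induced along with Slc7a11, fell by 2.18 and by 1.77.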

How the data were processed

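Total RNA of 64 reconstructed bladder walls was hybridised to 1-colour Agilent arrays, and the authors deposited Feature Extraction files (version 12.0.1.1 per the file headers) with processed signal intensity, background-corrected by the scanner software and not normalised between arrays. The deposited value table also holds processed signal and served as an alternative only. Of its columns 61 equalled the scanner signal and 3 differed, and 1 column lacked 26650 spots. Flags for well above background and for outlier spots, which the deposited files also give as a score per spot, set detection and removed outlier spots. No column of unknown samples was used (0 columns).

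Signals of control spots were left out, the log2 intensity was reduced by the 75th percentile of each array, spots of a probe were averaged, and limma 3.58.1 (R 4.3.3) was fitted to 30367 probes and all 64 arrays with 13 contrasts and Benjamini-Hochberg adjustment over all probes. A call needed an adjusted p under 0.01 and a fold over 1.5, as in the study's two-way ANOVA. Probes were named by RefSeq accession (18750 probes, 15709 genes). The script was tested on simulated data. The number of arrays limits the precision.

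Members and lists were chosen with earlier results of these data known. Named genes are the 3 largest calls in each direction between grafts at each day, members called at 2 or more days, the 2 largest calls in each direction per day step, up to 3 called changes of the graft difference, and 11 members among 25 names set in a list; Slc25a42, Slc35a1, Slc37a1, Slc26a6, Slc31a2, Slc39a6, Slc5a3, Slc5a6, Slc37a4, Slc25a17, Slc25a46, Slc7a6 and Slc17a5 were named after their values were seen. A further listed member is not reported here. Marker lists for other cell types (fibroblast, endothelium, T cell, B and plasma cell, mast cell, adipocyte, skeletal muscle, Schwann cell) were computed too. Alternatives were normexp with offset 50, quantile normalization, the percentile over detected probes, the deposited table, leaving out dim probes, separate fits, the replicate block, ANOVA without moderation, the mean of probes, outlier spots kept, each array left out, and, chosen after seeing the data, arrays of low correlation left out.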

Additional observations from a re-analysis of the deposited data

Results flagged for a closer look

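Of 240 groups of 8 arrays tested for the named members, 19 (7.92%) had an array far from the other 7, where chance gives about 1 in 20. Of these, 5 were BAM+ASCs at 90 days replicate 3: Slc22a23 at 2.69, Slc27a1, which takes up fatty acids, at -0.75, Slc28a2 at -3.34, Slc29a3 at -1.27 and Slc66a3 at -0.63. Another 3 were BAM at 90 days replicate 5, with Slc2a4 at 2.94, Slc7a11 at -5.3 and the phosphate carrier Slc20a1 at -0.07. BAM at 7 days replicate 2 was far off for Slc25a3 at 3.61 and Slc25a4 at 2.42, and replicate 5 for Slc25a5 at 3.02. The remaining ones were Slc12a2 with BAM at 90 days replicate 6 (-0.41), Slc20a1 with BAM+ASCs at 7 days replicate 1 (2.3), Slc24a3 with BAM+ASCs at 30 days replicate 7 (-2.31), Slc25a22 with BAM at 30 days replicate 8 (-0.16) and with BAM+ASCs at 90 days replicate 8 (-0.44), Slc32a1 with BAM+ASCs at 7 days replicate 4 (0.05), Slc6a18 with BAM at 30 days replicate 7 (-0.72) and Slc7a11 with BAM+ASCs at 7 days replicate 3 (-1.17).

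The graft difference changed between neighbouring days, by a contrast of contrasts in limma, for 12 pairs of member and step. From 7 to 30 days the change was 0.95 for Slc22a15. From 30 to 90 days it was -1.32 for Slc12a2, 0.78 for Slc35a4, 0.59 for Slc22a18, -0.8 for Slc4a2 and -1.53 for Slc32a1. From 90 to 180 days it was -0.78 for Slc16a13, -0.87 for Slc22a18, 1.54 for Slc4a2, -0.6 for Slc35a1, 1.87 for Slc32a1 and 1.52 for Slc6a18. For Slc4a2 the second probe gave 0.31 and 0.10 for the same steps, neither called. Second probes of Slc22a15 (0.73) and Slc6a18 (0.665) had the same sign for their steps and were not called.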

How the results depend on the processing

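Of 112 calls of single members, 51 were recomputed one by one under the alternatives, namely those between grafts, those of a changed graft difference and those that the rule for named genes took from the day steps. The other 61, all day steps, were not. None of the 51 changed direction, but the members' median at 7 days went from -0.03 to 0.08 with the percentile over detected probes. Of the 51, 39 to 51 remained under the various alternatives, fewest when each comparison was fitted on its own groups and all 51 when dim probes were left out. Members called at 7 days numbered 6 and became 3 in the separate fit. At 30 days 5 became 3 under quantile normalization, 2 in the separate fit and 9 without the arrays of low correlation. At 180 days the 1 call, Slc4a2, became 0 with the mean of the detected probes. In limma 12 members had an unadjusted p under 0.05 there, again without the share of all probes beside it. The 2 calls of BAM+ASCs from 90 to 180 days became 1 under normexp, under the percentile over detected probes and with the mean of probes. Leaving out 1 array gave 3 to 7 calls at 7 days (3 without BAM replicate 7), 1 to 8 at 30 days, 4 to 6 at 90 days and 1 to 1 at 180 days. At 30 days the count was 1 without BAM+ASCs replicate 2 or BAM replicate 2, 2 without BAM+ASCs replicates 7 or 8 or BAM replicates 3 or 4, 3 without BAM+ASCs replicate 6 or BAM replicate 1, and 8 without BAM+ASCs replicate 3 or BAM replicate 7. With the replicate number as a block the calls were 6, 6, 6 and 1, and Slc16a13 at 30 days was not called. Pairing was not borne out: 1 to 3 of 8 pairs per day correlated above 0.1, and 1 to 3 of 8 arrays correlated best with their own number. A slide block was not run, because slide equals group. The cause of these shifts was not tested, and the share of all probes called under each alternative is not given here. Signal over background limits BAM at 90 days most, and genes below it there are no members.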
